A study of Mus musculus with 106 samples.

Results

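Neurons that release glutamate fill their vesicles through 3 transporters, vGluT1, vGluT2 and vGluT3, which are encoded by Slc17a7, Slc17a6 and Slc17a8. The cortex and the cerebellar granule cells rely mostly on Slc17a7, the thalamus and brainstem mostly on Slc17a6, while Slc17a8 is carried by small populations that often release a second transmitter. The 9 genes described here, of 55401 in the count table, are these 3 transporters and 6 genes used as thalamic markers: Tcf7l2, Lhx9, Shox2, Lhx2, Rorb and Prkcd. They were listed by symbol to show which neurons the vGluT2 line captures in cerebrum and cerebellum, which cerebellar libraries stand apart in these genes, and how the genes compare between Huntington's disease (HD) and control mice.

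The libraries come from a RiboTag study, in which Cre turns on an HA-tagged ribosomal protein (Rpl22-HA) in a chosen class of neurons, and an HA immunoprecipitate (IP) recovers the RNA bound to ribosomes of that class. HD mice are Hdh Q7/Q200 knock-in heterozygotes and controls are Hdh Q7/Q7, all at 9 months on the 129S4 background and heterozygous for Cre and for the RiboTag allele. The libraries of 45 mice are 67 of IPs and 39 of total RNA from homogenates, in vGluT2, Gad2, PV and SST lines, the last of which the published article does not cover. Cerebrum means 1 hemisphere without olfactory bulb and cerebellum, cerebellum was taken in the vGluT2 and Gad2 lines, PV IPs pool duplicate precipitations, and 3 libraries, all HD, were sequenced again. In the vGluT2 line Cre sits at the Slc17a6 locus itself, and because recombination is permanent, cells that expressed Slc17a6 only during development keep the tag. In bulk RNA, fewer cells and less RNA per cell cannot be told apart.

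Library totals, counted on mouse genes, ran from 21905221 to 107753586 with a median of 35866725. The group medians of the vGluT2 IPs were 36255018 for control cerebrum (6 libraries), 40790140 for HD cerebrum (6), 36498914 for control cerebellum (5) and 37796747 for HD cerebellum (6). Among the 24 groups, the lowest median was 29017527, in the HD cerebellar total RNA of the Gad2 line (3), and the highest 45464390, in the HD cerebellar total RNA of the vGluT2 line (4). Levels are counts scaled to library size by TMM (CPM), a scaling that sets most genes equal between libraries. A gene was called when its Benjamini-Hochberg adjusted p from the edgeR quasi-likelihood test was at most 0.05; only genes that code for protein and average more than 10 counts per library were tested, and fold changes are on the log2 scale. Adjusted p-values below are from this test unless DESeq2 is named.

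The 9 genes lie on 7 chromosomes (GRCm38). Slc17a6 (chromosome 7, 51622006 to 51671119) and Slc17a7 (chromosome 7, 45163949 to 45176142) share a chromosome, and Slc17a8 lies on chromosome 10 (89574020 to 89621253). Tcf7l2 (chromosome 19, 55741820 to 55933654) encodes a Wnt-pathway transcription factor that sets the identity of thalamic and habenular neurons. Lhx9 (chromosome 1, 138825186 to 138848577) is a LIM homeodomain factor of the thalamus and midbrain, and Shox2 (chromosome 3, 66971727 to 66981771) a homeodomain factor of thalamic, midbrain and hindbrain neurons. Lhx2 (chromosome 2, 38339281 to 38369733) patterns the developing cortex and thalamus and is kept in upper-layer cortical cells. Rorb (chromosome 19, 18930605 to 19111196) is a nuclear receptor of sensory thalamus and cortical layer 4, and Prkcd (chromosome 14, 30595354 to 30626210) encodes a protein kinase C of first-order thalamus and of Purkinje cells.

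Some libraries stood apart from their set, and this bears on most cerebellar values. A cerebellum cut with a piece of other brain tissue would carry RNA of that tissue. Tcf7l2, Lhx9, Shox2 and Slc17a6 are each expressed in some of thalamus, midbrain and hindbrain, though not each in all of these. Tcf7l2 was over 5 times the median of its line and preparation in 4 of the 37 cerebellar libraries, a limit set after seeing the data. Control vGluT2 IP 5 read 106.4 CPM, which is 113 times its median, and HD vGluT2 IP 5 read 29 CPM, or 30.7 times. Control total RNA 4 of the vGluT2 line read 66.1 CPM, or 12.2 times, and HD Gad2 IP 2 read 7.88 CPM, or 6.65 times. The next library, control total RNA 2 of the Gad2 line, read 17 CPM, or 3.09 times its median, and was kept in the fits without the high libraries.

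In control vGluT2 IP 5, Tcf7l2, Lhx9, Shox2 and Slc17a6 stood at 173, 198, 114 and 105% of their mean in the cerebral vGluT2 IPs. Lhx2, Rorb and Prkcd, which those IPs also hold, stood at 7.41, 10.5 and 16.3%. The proportions of these 7 genes are thus unlike those of the cerebral IPs. Tfap2d, from a list of 8 midbrain and habenula genes, read 3.56 CPM here, 0.95 in HD vGluT2 IP 5 and 0 in the other 9 cerebellar vGluT2 IPs. Pou4f2, of the same list, read 2.73 CPM against at most 0.212 in those 9. Both genes were named after their values were seen, and the other genes of the list are not given singly for this library. The sum of the 16 hindbrain genes was 1.22 CPM in this library, within the range of those 9 (0.0305 to 17.2).

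The other high libraries carried partly different companions. Control total RNA 4 held Lhx9 at 18 CPM, Tfap2d at 2.69, Gata3 at 2.63 and Pax7 at 1.78, each above the other 7 libraries of its set. HD Gad2 IP 2 held Tal1 at 8.33 CPM, Gata3 at 4.34 and Pax7 at 2.6, genes of midbrain GABAergic and tectal neurons, again above the other 11. Apart from Lhx9, these companions were likewise named after their values were seen. The other genes of the midbrain and habenula list are not given singly for these libraries either. What that list does as a whole is therefore not shown. The summed hindbrain list was highest in control vGluT2 IP 2, at 17.2 CPM, a library whose Tcf7l2 was 1.03. The sums of the midbrain list and of the 11 other thalamic genes say little in these IPs, because Barhl2 made up 98.9% of the former and Calb2 86.7% of the latter, and cerebellar neurons express both. Without Calb2 the thalamic sum was 284 CPM in control vGluT2 IP 5, against 258 to 373 in the other control IPs. In HD vGluT2 IP 5 it was 333, against 204 to 388 in the other HD IPs. In HD Gad2 IP 2 the sum without Cacna1g, its most abundant gene, was 768, against 301 to 856 in the other HD Gad2 IPs. Control total RNA 4 had a whole sum of 1101, against 1104 to 1166 in the other controls of its line. By the mouse labels, the mouse of control vGluT2 IP 5 also gave a cerebellar total RNA library, and this read 3.26 CPM of Tcf7l2, or 0.603 times its median, while control total RNA 4 is from a mouse without a cerebellar IP. The total RNA of the mouse of HD vGluT2 IP 5 read 10.6 CPM, or 1.96 times. What made these libraries high, and whether they hold tissue from outside the cerebellum, was not tested by any means other than levels of RNA.

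**Figure D1:**
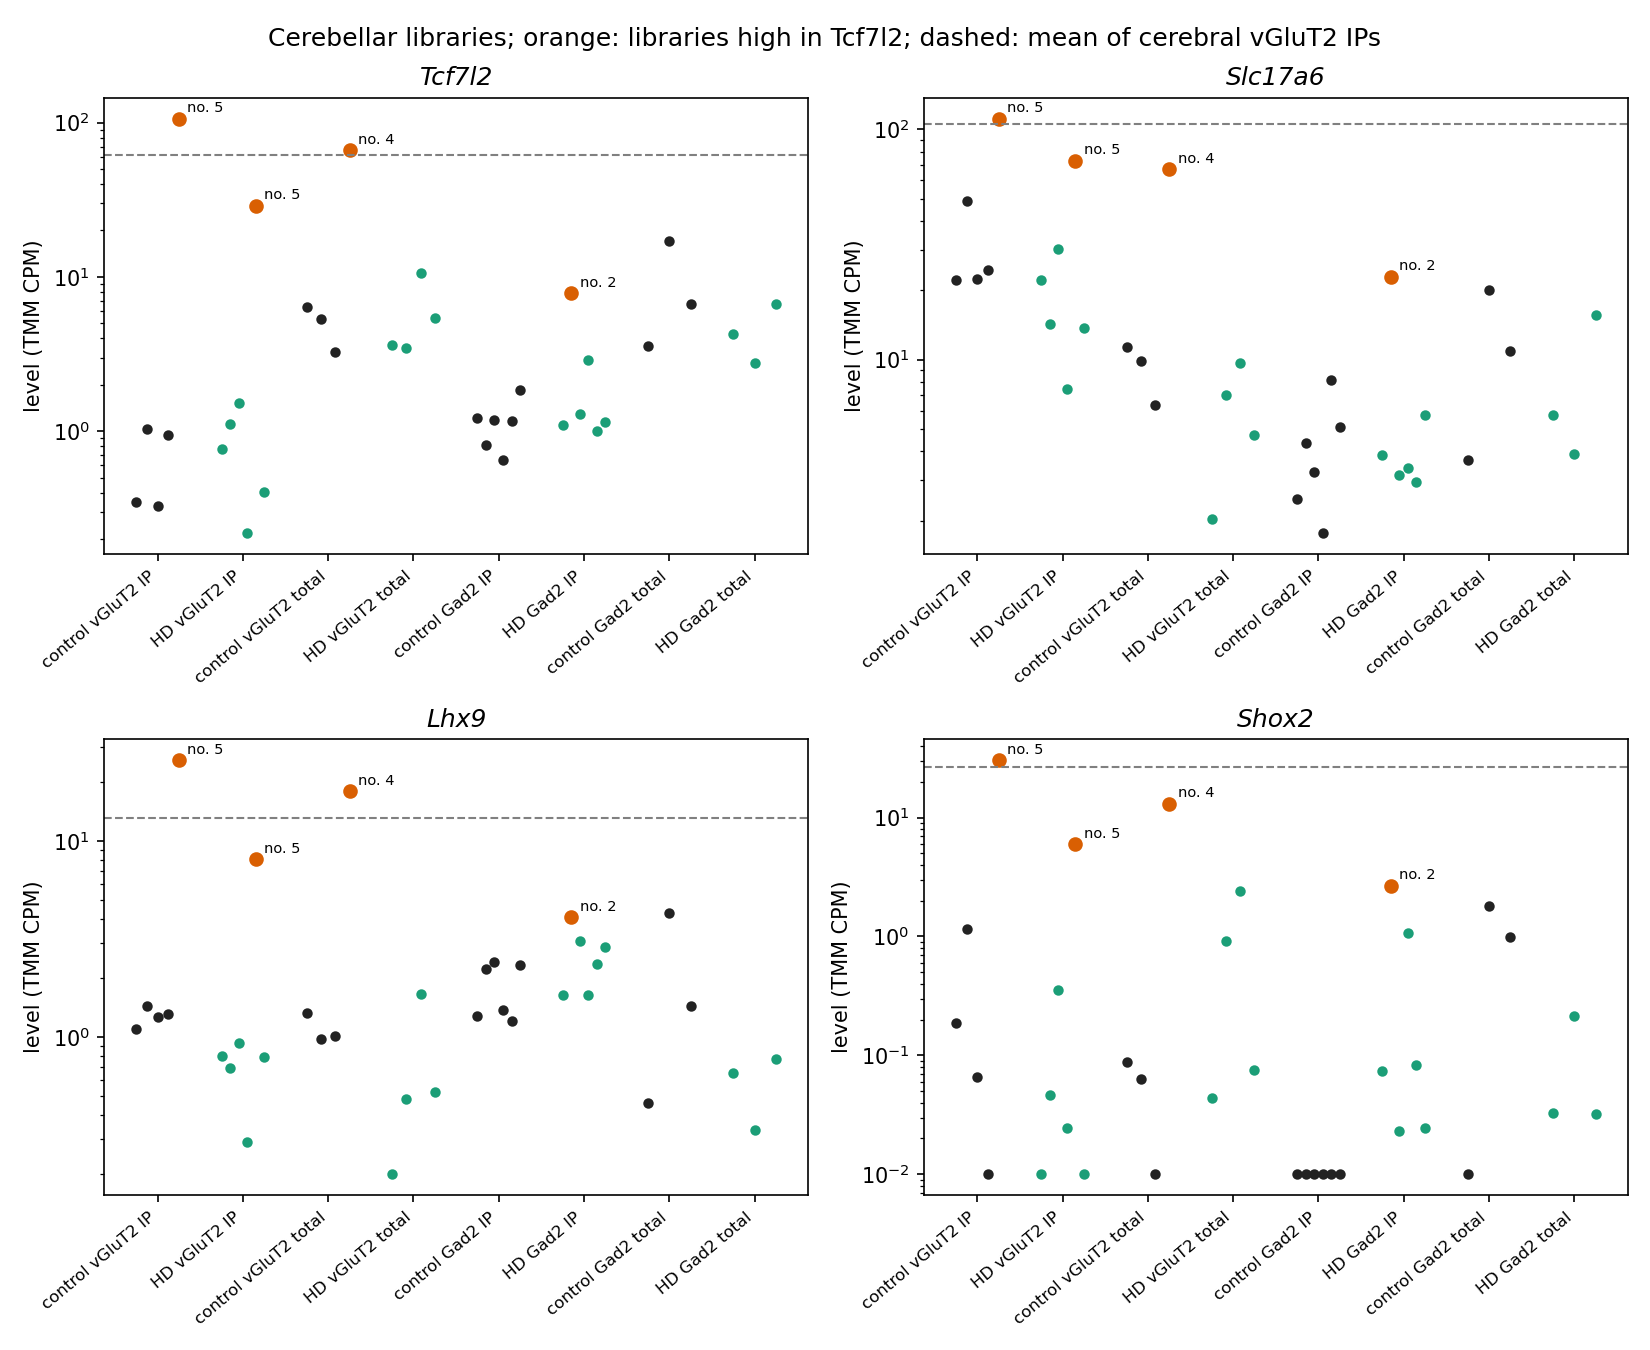
Levels (TMM CPM, log scale) of Tcf7l2, Slc17a6, Lhx9 and Shox2 in each cerebellar library, by line, preparation and genotype. The 4 libraries high in Tcf7l2 are orange with their replicate number, and the dashed line is the mean of the 12 cerebral vGluT2 IPs; control vGluT2 IP 5 reaches 106.4 CPM for Tcf7l2 against 0.326 to 1.03 in the other 4 controls.

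Other libraries to note lie in the cerebrum and in the labels. Control and HD cerebral total RNA 1 of the Gad2 line read 130 and 137 CPM of Slc17a6, over 2 times the median of 48.1 for cerebral total RNA, together with the highest Rorb (47 and 43.6). Of the 36 mice with 2 or more libraries, 3 had libraries that differ in sex-linked genes, and control cerebellar vGluT2 IPs 1, 3 and 4 are among these libraries. IP 4 had a Y-linked sum of 0 CPM against 18.9 to 91.5 in the 3 other libraries of its mouse. The mice of IPs 1 and 3 gave 1 cerebral IP besides (0 against 26.7 and 113 against 0 CPM), so which of both is off cannot be told. Labels shifted by 1 mouse would match in sex for all 5 control cerebellar vGluT2 IPs, and IP 5 would then share its mouse with control total RNA 4. Both libraries were the lowest of their group in the summed choroid plexus genes. IP 5 read 19.7 CPM against 110 to 274 in the other control IPs, and total RNA 4 read 204 against 1553 to 1815. Lower sums occur in other cerebellar libraries, such as 3.28 CPM in HD vGluT2 IP 6 and 2.9 in control Gad2 IP 6. HD total RNA 4 of the vGluT2 line read 30.8. What made control IP 5 and control total RNA 4 low was not tested. The labels of all 5 are therefore in doubt, as are fits with mouse as a block, and no library was reassigned. The hindbrain sum also varied among cerebral vGluT2 IPs, from 1.66 to 45.6 CPM. Most fits that these libraries move are given with and without them, as alternatives chosen after seeing the data. The ratios of cerebellar to cerebral total RNA are given only with them.

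The vGluT2 line is expected to collect thalamic, midbrain and brainstem neurons together with those cortical and hippocampal cells that carried Slc17a6 in development. Enrichment in the IP over total RNA asks which RNAs belong to the tagged cells. Slc17a6, the gene that drives Cre, ran from 37.7 to 156 CPM in the 12 cerebral vGluT2 IPs (median 113) and from 18 to 137 in the 18 cerebral total RNA libraries of the 3 published lines, so the ranges overlap. Its log2 ratio was 0.97 (SE 0.258, adjusted p 0.00167), and 1.28 without the 2 high total RNA libraries, which were left out for their Slc17a6, so that this ratio could only rise and has no test. Slc17a7 ran from 1655 to 2688 CPM in the same IPs (median 1826) and rose by 0.29 (SE 0.116, adjusted p 0.0305). DESeq2 gave 0.25 with an adjusted p of 0.0537, and without HD vGluT2 IP 1, the highest library, the ratio was 0.23 (adjusted p 0.0789). Slc17a8 was low, 0.232 to 3.52 CPM (median 2.05), with a ratio of -0.76 (adjusted p 0.0454), and -0.69 (adjusted p 0.127) against total RNA of the vGluT2 line alone. Without the 2 high total RNA libraries, which also hold the highest Slc17a8 (9.43 and 8.88 CPM), it was -0.41, again with no test.

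The thalamic genes were enriched with Slc17a6, apart from Lhx2. Shox2 ran from 14 to 36.8 CPM (median 25.7) in the IPs and its ratio was 0.79 (adjusted p 1.74e-08). Tcf7l2 ran from 29.8 to 90.3 CPM (median 55.3), with a ratio of 0.83 (adjusted p 1.54e-05). Lhx9 ran from 7.25 to 19.6 CPM (median 11.8), with a ratio of 1.0 (adjusted p 1.00e-05). Rorb, from 27 to 69.9 CPM (median 45.8), had the largest ratio of the 9, 1.17 (adjusted p 0.000295), and Prkcd, from 74.7 to 148 CPM (median 98), had 0.51 (adjusted p 2.07e-05). Lhx2, from 38.2 to 52.3 CPM (median 43.7), had -0.11 (adjusted p 0.123); DESeq2 gave -0.14 (adjusted p 0.0404), as did edgeR, with no test, without the 2 total RNA libraries high in Slc17a6, which hold the lowest Lhx2. In all, 8 of the 9 genes were called, 7 higher and 1 lower, where 63.6% of 14839 genes were called, so the count itself is not far from the background. Slc17a8 lost its call without any 1 of 9 of the 12 IPs (all but control 3, control 5 and HD 3), at adjusted p of up to 0.0752.

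Markers of other cells give the reach of the capture. All 6 telencephalic genes were higher in the cerebral vGluT2 IPs than in total RNA (median 1.04), against a median of -0.01 over all genes, so cortical glutamatergic cells are part of what was collected. Their summed level was 384 to 680 CPM per IP (mean 549), with Tbr1 the most abundant, and 5 of 11 other thalamic genes were higher and 1 lower (median 0.42). All 3 GABAergic genes (median -2.9), 8 oligodendrocyte genes (-3.53), 5 astrocyte genes (-3.51), 5 microglia genes (-4.15) and 3 choroid plexus genes (-3.84) were lower. None of 16 hindbrain genes was called by edgeR (median -0.64), and of 7 midbrain and habenula genes tested 3 were lower. Of 13 genes of glutamate supply, which include astrocyte transporters such as Slc1a3 (-3.95, also on the astrocyte list), 3 were higher and 5 lower.

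Slc17a6 does not single out the vGluT2 line. Its mean was 122 CPM (SD 34.7) in the PV IPs, 111 (SD 31.3) in the SST IPs and 105 (SD 36.3) in the cerebral vGluT2 IPs, and neighbours in this order differ by less than the larger SD. It was 15.3 (SD 8) in the cerebral Gad2 IPs. Of the 3 transporters, counted per kilobase of merged exons, Slc17a7 made up 94.7% (SD 2.07) in the cerebral vGluT2 IPs, 87.1% (SD 3.63) in the PV IPs and 87.5% (SD 4.36) in the SST IPs. In total RNA the share was 97% (SD 1.53) in the cerebrum of the vGluT2 line, so most transporter RNA is that of Slc17a7 with or without the IP. Slc17a8 was highest in the cerebral Gad2 IPs, at 6.88 CPM (SD 2.09), followed by the SST IPs at 5.61 (SD 2.1), a difference within the spread.

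Across the remaining genes the cerebral vGluT2 IPs were highest for Tcf7l2 (61.6 CPM, SD 19.5), Lhx9 (13.1, SD 4.17) and Rorb (44.4, SD 13.3), but in each case the SST IPs came next within the larger SD (55.2, 11.8 and 33.5). Shox2 (26.6, SD 6.65) exceeded its neighbour, the SST total RNA (17, SD 3.14), by more than the larger SD with ranges that overlap. Lhx2 differed from this pattern, with 43.1 to 47.8 CPM in the total RNA of every cerebral set and 43.8 in the vGluT2 IPs, then 18.4 in the SST IPs. Prkcd was highest in the cerebellar Gad2 IPs, at 254 CPM (SD 60.2), which hold Purkinje cells, and its lowest value there, 169, lies above the highest, 148, of the cerebral vGluT2 IPs, which came next.

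**Figure D2:**
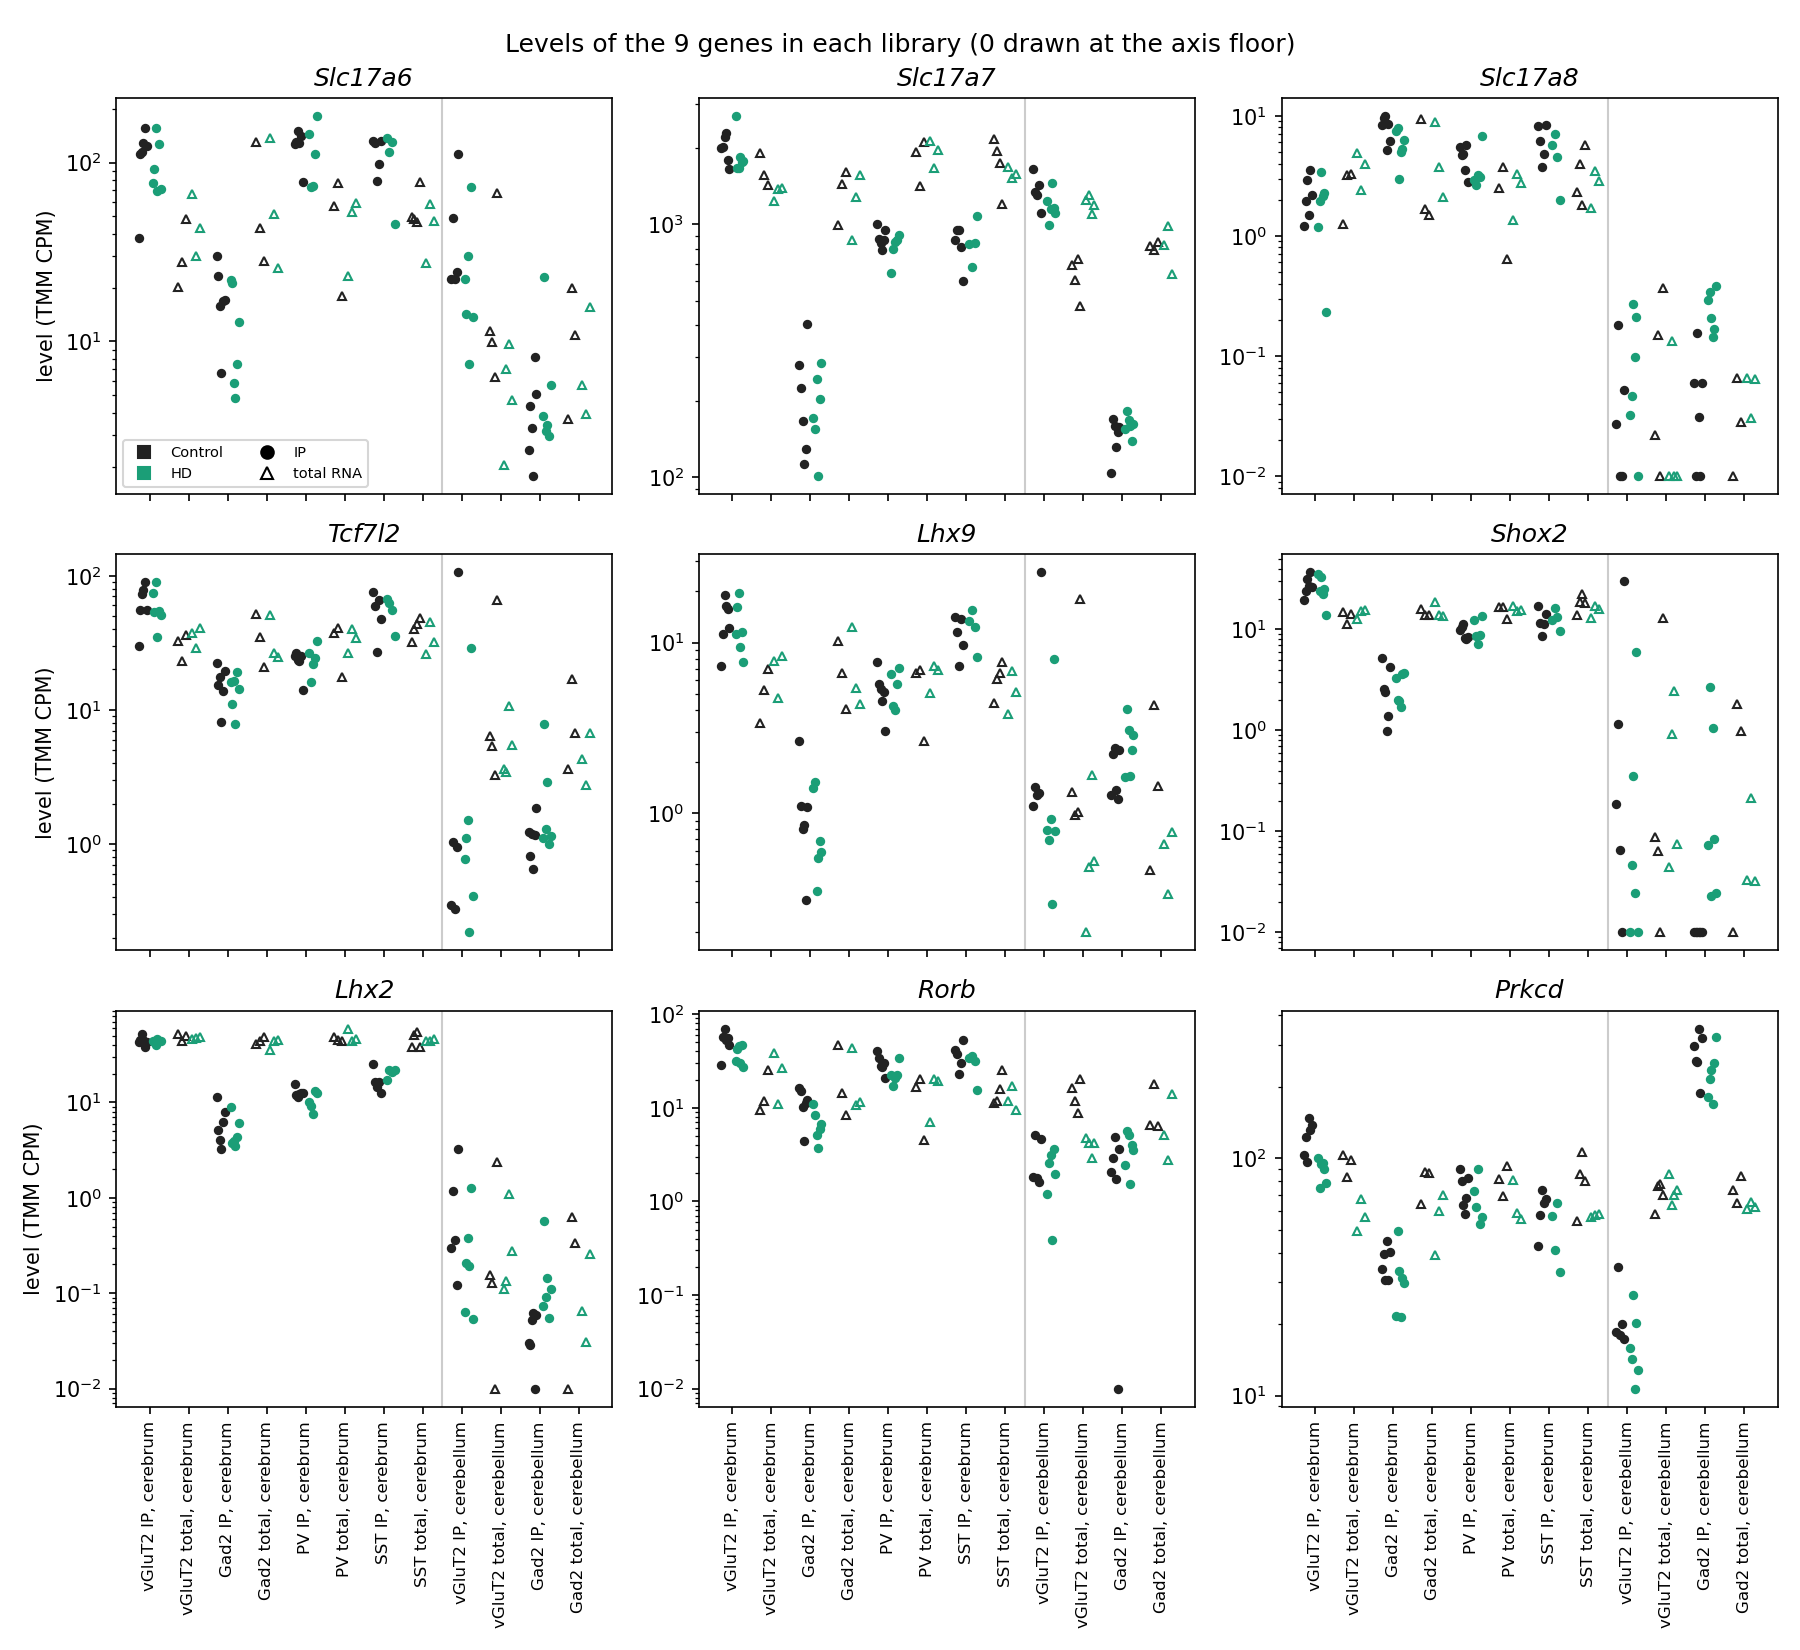
Levels (TMM CPM, log scale) of the 9 genes in each library, by line, region and preparation, with IPs as filled circles, total RNA as open triangles, control in black and HD in green. Slc17a6 is as high in PV IPs (mean 122) as in cerebral vGluT2 IPs (mean 105).

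In the PV and Gad2 lines the same ratios describe what those IPs hold of glutamatergic cells. PV neurons include brainstem and thalamic cells that also use glutamate, and pull-downs carry some RNA of untagged cells. In the PV IPs 5 of 9 genes were called, where 73.2% of 14896 genes were: Slc17a6 higher (1.20, adjusted p 0.000172; 1.5, again with no test, without the 2 total RNA libraries left out for their Slc17a6), and Slc17a7 (-0.90), Tcf7l2 (-0.54), Shox2 (-0.64) and Lhx2 (-2.02) lower. Slc17a8 had 0.28 (adjusted p 0.389) and Rorb 0.47 (adjusted p 0.127). Without those 2 libraries, which hold the highest levels of both genes in total RNA, they had 0.64 and 0.74, with no test for the same reason. In the cerebral Gad2 IPs all 9 were called, where 63.5% of 14779 genes were, 8 lower (from -3.03 for Lhx2 to -1.09 for Prkcd) and Slc17a8 higher (1.02, adjusted p 0.00237; 0.63 and adjusted p 0.155 against total RNA of the Gad2 line alone). In the cerebellar Gad2 IPs 6 of 8 were called, where 67.4% of 14411 genes were. Prkcd was higher (1.80, adjusted p 9.08e-15) and Slc17a6 (-1.04, adjusted p 0.0467; 0.0762 against total RNA of the Gad2 line alone), Slc17a7 (-2.53), Tcf7l2 (-2.34), Lhx2 (-1.98) and Rorb (-1.42) lower. Lhx9 had 0.42 and Shox2 -2.25. Without the libraries high in Tcf7l2 they had 0.96 and -2.32, with no test, since these libraries also hold the highest Lhx9 and Shox2 of the IPs and of the total RNA. All 6 Purkinje cell genes were higher in those IPs (median 2.02).

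In the cerebellum the vGluT2 line meets granule cells, which switch from Slc17a6 to Slc17a7 as they mature, and unipolar brush cells. Their tag is therefore in part a record of early Slc17a6. Slc17a6 read 22.2, 49, 22.3, 24.4 and 111 CPM in control IPs 1 to 5, and 7.49 to 73 in the 6 HD IPs (median 18.3). The highest value of each genotype is in the library high in Tcf7l2. Against 2.03 to 67.3 CPM in the 14 cerebellar total RNA libraries, its ratio was 1.52 (SE 0.425, adjusted p 0.00265), and 1.36, with no test, without the libraries high in Tcf7l2, which also hold the highest Slc17a6. Slc17a7 was far more abundant, 1106 to 1657 CPM in the controls and 999 to 1456 in HD, with a ratio of 0.43 (SE 0.131, adjusted p 0.00527). With mouse as a block it was 0.22 (adjusted p 0.349), and without the 3 mice that differ in sex-linked genes 0.17 (adjusted p 0.411). Slc17a7 made up 97.2% (SD 2.56) of the 3 transporters per kilobase. Slc17a8 was at 0 in 3 of 11 IPs and at most 0.272 CPM.

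The thalamic genes show how far single libraries can carry a cerebellar ratio. Tcf7l2 read 0.35, 1.03, 0.326, 0.945 and 106.4 CPM in control IPs 1 to 5, and 0.219 to 29 in HD (median 0.94). Its ratio to total RNA was 0.13 (adjusted p 0.89) over all libraries and -3.07 without those high in Tcf7l2, a value with no test because the gene itself chose the libraries. Leaving out control IP 5 alone gave -1.61 (adjusted p 0.125) and HD IP 5 alone -0.94 (adjusted p 0.349). It read 0.219 to 1.52 CPM in 9 of these IPs, below all 14 total RNA libraries (2.75 to 66.1), and more in 2. Shox2 moved from 1.06 to -1.55 and Lhx9 from 0.96 to -0.16 without the high libraries, which hold the highest levels of both, so that these values have no test either. Rorb (-1.79, adjusted p 2.87e-05; -1.85 without them) and Prkcd (-2.02, adjusted p 3.15e-13; -1.96 without them), which total cerebellum holds in other cells, were lower in the IPs either way. In all, 4 of 8 genes tested were called, 2 higher and 2 lower, where 68.3% of 14254 genes were called.

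Cell type markers describe the rest of the cerebellar capture. All 11 granule cell genes were higher than in total RNA (median 0.91), against 0 over all genes, and their summed level was 11672 to 15883 CPM in the control IPs and 7660 to 11871 in the HD ones. Cbln3, the most abundant, read 3699 to 5349 CPM in controls and 2192 to 3106 in HD, without overlap. All 3 unipolar brush cell genes were higher too (median 0.94). All 6 Purkinje cell genes (median -2.76), 3 GABAergic (-2.09), 8 oligodendrocyte (-2.78), 5 astrocyte (-2.9), 5 microglia (-3.8) and 3 choroid plexus genes (-2.95) were lower. Of the 13 genes of glutamate supply, 5 were higher and 5 lower.

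Comparing cerebellar with cerebral vGluT2 IPs sets granule cells beside thalamic and cortical cells. All 9 genes were lower in the cerebellar IPs, where 72.6% of 14253 genes were called in either direction. Slc17a8 passed the count limit only through its cerebral counts, in these IPs and in total RNA, so its direction adds little to the count. The ratios ran from -0.71 for Slc17a7 (adjusted p 2.61e-07) to -6.20 for Lhx2 (adjusted p 2.84e-12), with Slc17a6 at -1.70 (adjusted p 6.01e-05), Slc17a8 at -4.69, Rorb at -4.21 and Prkcd at -2.57. Those of the genes high in control IP 5 and HD IP 5 were larger without these 2 IPs: Tcf7l2 -6.46 instead of -2.61, Shox2 -7.17 instead of -3.42, Lhx9 -3.88 instead of -2.02 and Slc17a6 -2.31. The IPs left out hold the highest cerebellar levels of these genes, so the ratios could only grow and have no test. Without them Shox2 also passes the count limit only through its cerebral counts. DESeq2 called 5 of the 9, giving no adjusted p for Tcf7l2, Lhx9, Shox2 and Lhx2. In total RNA of the vGluT2 and Gad2 lines 8 of 9 were lower in cerebellum, where 54.8% of 14885 genes were called, from Slc17a7 (-0.72) and Rorb (-1.40) over Tcf7l2 (-2.02), Lhx9 (-2.14), Slc17a6 (-2.25) and Shox2 (-4.01) to Slc17a8 (-5.83) and Lhx2 (-6.97), and Prkcd was -0.03 (adjusted p 0.84), with 58 to 85.5 CPM in the cerebellar total RNA of the vGluT2 line against 49.3 to 103 in its cerebral total RNA. With mouse as a block Rorb was -0.80 (adjusted p 0.0945). The total RNA ratios of Tcf7l2, Lhx9, Slc17a6 and Shox2 include control total RNA 4 of the vGluT2 line. That library read 66.1, 18, 67.3 and 13.1 CPM, against medians of 5.4, 0.993, 8.33 and 0.0817 in the cerebellar total RNA of its line. Ratios without it are not given here.

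Whether HD alters these genes was asked within each set of IPs. In cerebral vGluT2 IPs, Prkcd ran from 96.1 to 148 CPM in controls (median 128) and from 74.7 to 100 in HD (median 92.7), and 5 of 6 HD libraries lie below all controls. Its fold change was -0.43 (SE 0.125, adjusted p 0.636, unadjusted p 0.00395). Rorb ran from 28.3 to 69.9 CPM in controls (median 54.2) and from 27 to 46.4 in HD (median 37.2), with broad overlap, at -0.43 (SE 0.168, adjusted p 0.677). Slc17a6 ran from 37.7 to 156 CPM in controls (median 118) and from 69.6 to 155 in HD (median 84.2), at -0.13 (SE 0.265, adjusted p 0.891). Of the others, Slc17a7 was at -0.02, Slc17a8 at -0.21, Tcf7l2 at -0.04, Lhx9 at -0.07, Shox2 at -0.07 and Lhx2 at 0.02. By edgeR 0 of 9 were called, 2 had an unadjusted p under 0.05 and DESeq2 called 0; over all genes 0.00697% were called, that is 1 of 14354, and 0 without any 1 of 10 of the 12 libraries (all but control 5 and HD re1).

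In cerebellar vGluT2 IPs, HD values cannot be read without the libraries high in Tcf7l2, of which 1 is control and 1 HD. Over all libraries Slc17a6 had -0.78 (SE 0.538, adjusted p 0.52), and without them, the highest of each genotype, -0.68, with 3 of 6 HD IPs below all controls. Tcf7l2 had -2.08 (SE 1.51, adjusted p 0.546), 0.32 without both, with no test for the same reason, and 3.05 (adjusted p 0.287) without control IP 5 alone. Lhx9 had -1.75 (adjusted p 0.428) and -0.79, again with no test, without both, where the 5 remaining HD IPs, at 0.292 to 0.926 CPM, lie below the 4 remaining controls, at 1.1 to 1.43. Its sign turned to 0.61 without control IP 5. Shox2 had -2.70 (adjusted p 0.465) and 1.60 without control IP 5, and fell under the count limit without both. Lhx2 had -1.57, -0.41 without control IP 5, -2.49 without HD IP 5 and -1.33 without both, at 3.25 CPM in control IP 5 against 0.122 to 1.18 in the other 4 controls. Rorb had -0.45, -0.20, -0.65 and -0.40 in these 4 fits and Prkcd -0.34, -0.39, -0.39 and -0.44, and none of the 3 genes was called in any of them. Slc17a7 had -0.14 (SE 0.131, adjusted p 0.643), with a single HD IP below all controls.

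By edgeR 0 of 8 genes tested were called in the cerebellar vGluT2 IPs, 0 had an unadjusted p under 0.05 and DESeq2 called 0, giving no adjusted p for Tcf7l2, Lhx9 and Shox2, while 2.11% of 13487 genes were called (285). That count was 149 to 188 without control IP 1, 2, 3 or 4 or HD IP 1 or 5, and 152 without both high libraries. Of the 11 granule cell genes, 3 were called lower (median -0.37, against -0.01 over all genes), Neurod1 being lowest at -0.87, and no gene of the other lists was called for HD in any set of IPs. The difference of the HD effect between cerebellar and cerebral vGluT2 IPs, tested directly, called 0 of 9 by edgeR, where 0.323% of 14253 genes were called; 1 had an unadjusted p under 0.05 and DESeq2 called 0. It was -0.62 for Slc17a6 (adjusted p 0.919) and -1.61 for Lhx2 (adjusted p 0.632). The others were -0.10 for Slc17a7, -2 for Tcf7l2, -1.65 for Lhx9, -2.63 for Shox2, -0.01 for Rorb and 0.11 for Prkcd. Without the high libraries the sign turned for Tcf7l2 (0.35) and Prkcd (-0.05), and Lhx9 had -0.76, Shox2 -1.90 and Lhx2 -1.36. Slc17a8 had 1.25, which rests on few counts, as its cerebellar means were 0.0522 CPM in controls and 0.11 in HD and the gene was not tested within the cerebellar IPs.

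The other IPs gave 0 calls among the 9 genes by edgeR. In cerebral Gad2 IPs 0 of 9 were called where 0.0279% of 14342 genes were (4, and 12 without HD IP 4), 1 had an unadjusted p under 0.05 and DESeq2 called 0; the lowest was Rorb at -0.77 (SE 0.285, adjusted p 0.536). In PV IPs 0 of 9 were called where 0.034% of 14713 were (5, and 0 to 2 without any 1 library but HD re2), with 2 under an unadjusted 0.05 and 0 by DESeq2. Rorb there was -0.42 (SE 0.169, adjusted p 1). In SST IPs 0 of 9 were called where 0% of 14689 genes were (1 without HD IP 3), with 0 under an unadjusted 0.05 and 0 by DESeq2. In cerebellar Gad2 IPs 0 of 7 were called where 0.0142% of 14098 were (2, and 0 without any 1 of 11 of the 12 libraries, all but HD IP 4), with 2 under an unadjusted 0.05. DESeq2, which called more genes in this set than edgeR, as given below, called Shox2 there (adjusted p 0.00628). This gene was at 0 in all 6 controls and at 0.0231 to 2.68 CPM in HD, highest in HD IP 2, the library high in Tcf7l2. Without that library Shox2 fell under the count limit. Slc17a6 had 0.64 (adjusted p 1) over all libraries and -0.22 without HD IP 2.

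Total RNA shows the whole tissue, and its cerebral fold changes were small. Prkcd read 64.2, 87.6 and 86.6 CPM in the 3 controls of the Gad2 line and 39.3, 59.9 and 70.2 in its HD libraries. It read 81.6, 69.1 and 92.6 in PV controls and 80.8, 59.1 and 55.3 in PV HD, then 103, 83.7 and 98.6 in vGluT2 controls and 49.3, 67.6 and 56.7 in vGluT2 HD. The genotypes are apart in the vGluT2 line and overlap in the others. The share of all genes that are apart in these libraries is not given here. The SST line is not part of this comparison; its total RNA had a mean of 81.8 CPM in 4 controls and 57.6 in 3 HD libraries, with overlap. The fold change of Prkcd was -0.50 (SE 0.132, adjusted p 0.225; DESeq2 -0.51, adjusted p 0.0382), and -0.49 (adjusted p 0.152) without the 2 libraries high in Slc17a6. Slc17a7 was also apart in the vGluT2 line, at 1436 to 1915 CPM in controls and 1243 to 1392 in HD, but overlapped in the Gad2 and PV lines, and had -0.10 (adjusted p 0.84). DESeq2 called 1 of the 9, Prkcd, and called more genes in all than edgeR, as given below. By edgeR 0 of 9 genes were called and 1 had an unadjusted p under 0.05. Over all genes edgeR called 0.141% of 14871, that is 21. Leaving out 1 library gave 4 to 43 calls, the extremes without HD PV 2 and HD Gad2 3, and only leaving out control Gad2 1, control PV 1 or HD PV 1 kept the count within 1.5 times.

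In cerebellar total RNA 3 of 8 genes were called, where 24.5% of 14477 genes were (3544). Slc17a7 read 689, 603, 731 and 474 CPM in vGluT2-line controls and 1246, 1309, 1102 and 1195 in HD, but 824, 789 and 852 in Gad2-line controls and 831, 983 and 637 in HD. The genotypes are apart in the first line and overlap in the second. Here too the share of all genes that are apart is not given. Its fold change was 0.57 (SE 0.175, adjusted p 0.0371). Rorb read 16.4, 11.7, 8.68 and 20.4 CPM in vGluT2-line controls and 4.7, 4.24, 2.89 and 4.24 in HD, then 6.52, 17.9 and 6.39 in Gad2-line controls and 5.11, 2.75 and 13.9 in HD. Again only the vGluT2 line separates, and the fold change was -1.24 (SE 0.375, adjusted p 0.0358). Lhx9 read 1.33, 0.977, 1.01 and 18 CPM against 0.199, 0.483, 1.66 and 0.524, then 0.46, 4.28 and 1.44 against 0.656, 0.336 and 0.773. Its -2.38 (SE 0.757, adjusted p 0.039) was -1.12 (adjusted p 0.144) without control vGluT2 4, the library at 18.

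These 3 calls rest on the whole set of libraries. Without control vGluT2 4, Slc17a7 had 0.47 (adjusted p 0.0776) and Rorb -1.08 (adjusted p 0.0741), and 143 genes were called in all. The 3 genes lost their calls without any 1 of 10 libraries (all but control Gad2 1 and 3 and HD Gad2 1 and 3), at adjusted p of 0.054 to 0.144, and without HD Gad2 1 only Slc17a7 was called. Over these 10 fits the fold changes kept their direction, at 0.47 to 0.60 for Slc17a7, -1.08 to -1.29 for Rorb and, apart from the -1.12 without control vGluT2 4, -2.12 to -2.77 for Lhx9. The count over all genes ran from 96 without HD vGluT2 4 to 7408 without HD Gad2 3, and stayed within 1.5 times only without control Gad2 1 or 3 or HD Gad2 1. Slc17a6 had -1.32 (adjusted p 0.102), but was called at -1.57 (adjusted p 0.0469) without control Gad2 1 and at -1.68 (adjusted p 0.0236) without HD Gad2 3, and had -0.54 (adjusted p 0.342) without control vGluT2 4. Over all genes 24.5% of 14477 were called, 1732 higher and 1812 lower, and the markers also moved both ways. Of 8 oligodendrocyte genes 3 were lower, as were 2 of 5 astrocyte, 2 of 6 Purkinje cell, 2 of 3 GABAergic and 1 of 11 granule cell genes. Higher were 2 of 5 microglia and 1 of 2 hindbrain genes tested. Of 10 other thalamic genes tested 1 was higher and 3 lower, and of 13 genes of glutamate supply 2 were higher and 1 lower. Calb2, the gene of the thalamic list called higher (1.15, adjusted p 0.00612), was apart in both lines. The cerebellar vGluT2 IPs hold 1372 to 2516 CPM of it and the cerebral ones at most 216. Its level in cerebellum is therefore not a thalamic reading. In total RNA Calb2 read 643 to 1016 CPM in the HD libraries of the Gad2 line and 407 to 567 in its controls. In the vGluT2 line it read 1098 to 1320 CPM in HD and at most 573 in controls. The microglia sum was 99.7 to 117 CPM against 68.4 to 78.7 in that line, and 77.7 to 78.2 against 67.3 to 80.2 in the Gad2 line. Without control vGluT2 4, Calb2 was the only gene of these lists called higher, and 4 were lower.

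**Figure D3:**
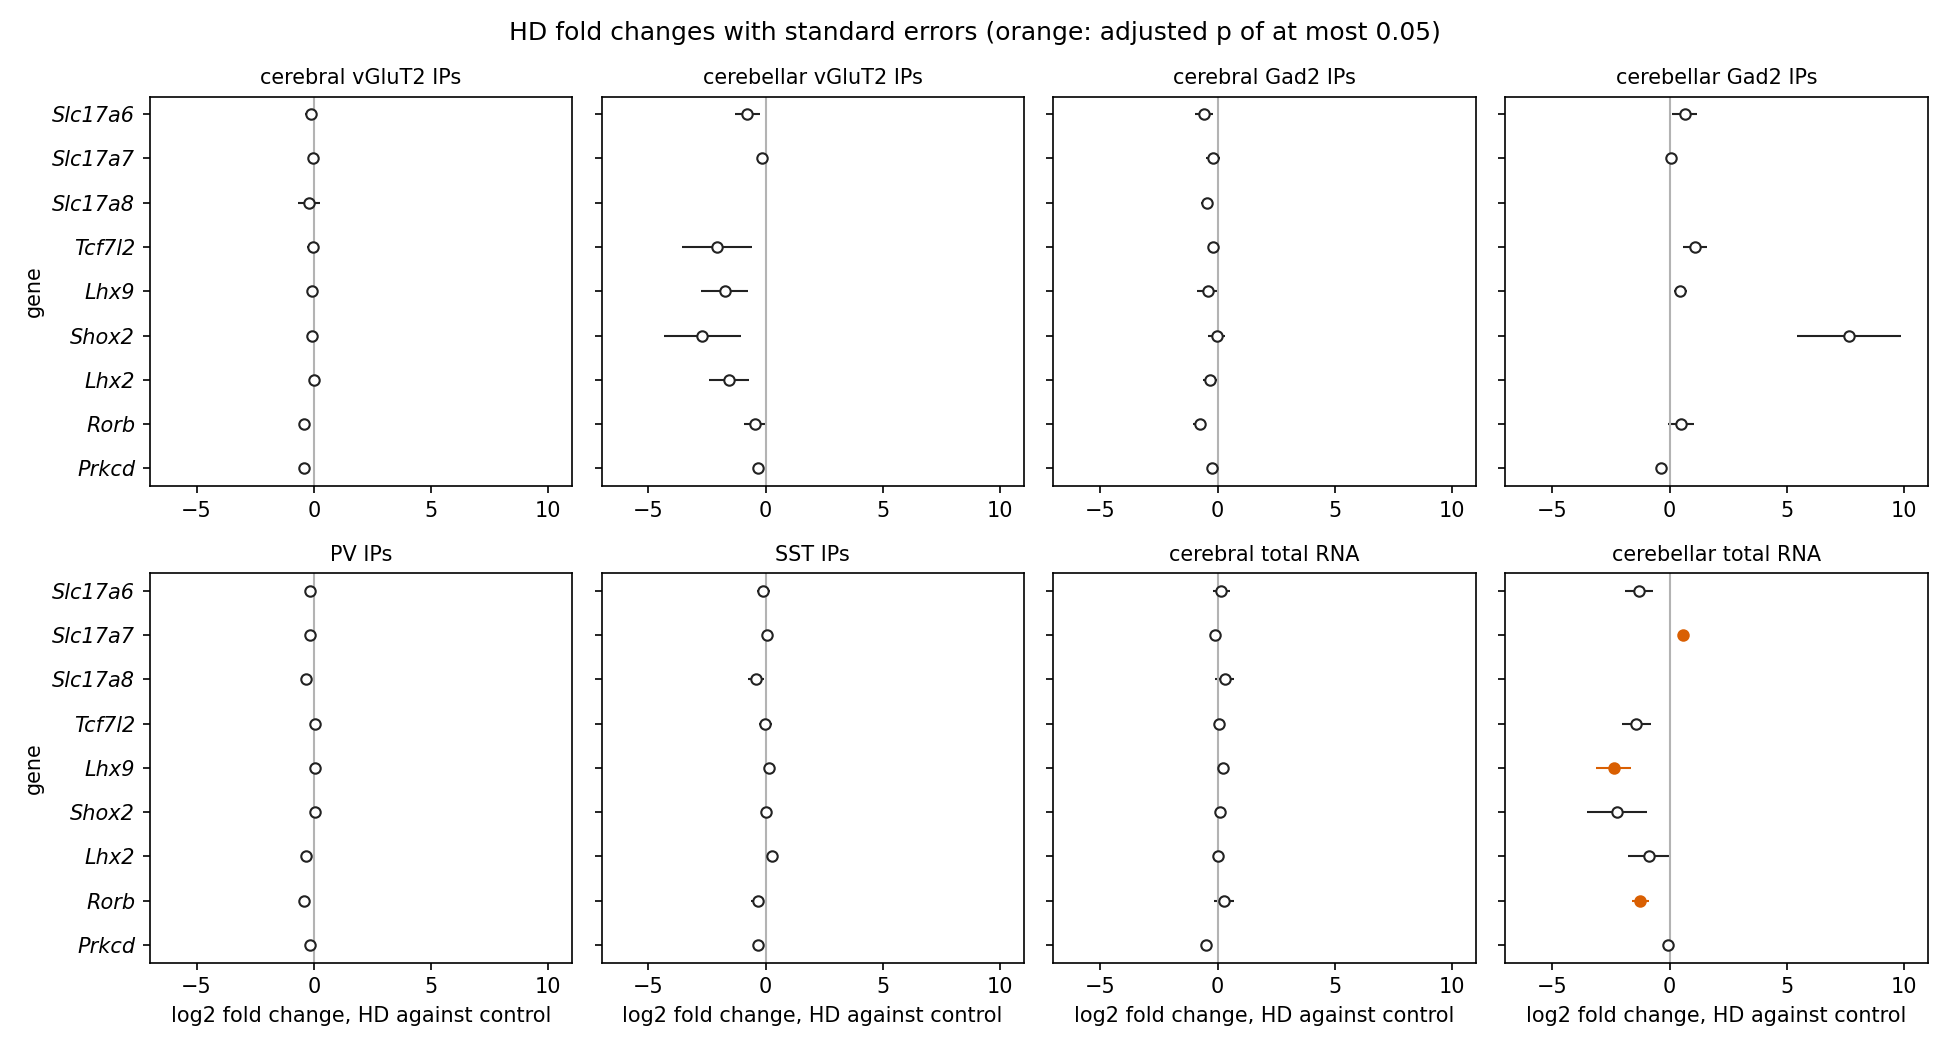
Fold changes (log2, HD against control) of the 9 genes with standard errors, in 6 sets of IPs and in total RNA of cerebrum and cerebellum. Orange marks an adjusted p of at most 0.05, reached in cerebellar total RNA only, by Slc17a7 (0.57), Lhx9 (-2.38) and Rorb (-1.24); Shox2 in cerebellar Gad2 IPs (7.64) is a fit against controls that are all at 0.

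Across all 67 IP and 39 total RNA libraries, the genes whose log2 levels run most alike to Slc17a6, Slc17a7 and Tcf7l2 were sought among 14800 genes by Pearson correlation. For Slc17a6 they were Ntng1 (0.917), Ndst4 (0.906), Tshz3 (0.873), Napepld (0.861) and Pappa2 (0.861). For Slc17a7 they were Nxph3 (0.952), Nrn1 (0.952), Rtn4r (0.919), Coro2a (0.876) and Tspan17 (0.873), and for Tcf7l2 they were Shox2 (0.938), itself of the 9, Cbln2 (0.919), Tox (0.914), Cpne4 (0.896) and March1 (0.896). These values mix region, line and preparation.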

How the data were processed

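The deposited table holds estimated counts per gene for each library, which the authors made from sequencing reads with STAR and Salmon on GRCm38.p6 according to the submitters' notes; the libraries were stranded mRNA libraries, and the strand setting of the counting is not given. Of its values 8.58% are not whole, and they were rounded to whole numbers. The table has 55401 genes and 92 spike-ins, which were left out of the library totals, and 55141 genes were found in GENCODE M21, 21897 of them protein-coding. Ensembl identifiers were joined to symbols through that annotation. Groups follow the labels of genotype, line, region and preparation, and no library was moved.

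Counts were fitted in edgeR 4.0.16 under R 4.3.3 with TMM scaling, quasi-likelihood F tests and Benjamini-Hochberg adjustment, for genes with a mean above 10 counts in the libraries compared. The standard error is the absolute fold change over the square root of F. Each fit was repeated in DESeq2 1.42.0, without the count filter, with other scaling, with the replicate number or the mouse as a block, with other choices of total RNA, without re-sequenced libraries and, for the main comparisons, without each library in turn. Alternatives without libraries high in Tcf7l2 (over 5 times their median) or Slc17a6 (over 2 times) were chosen after seeing the data, as was the block without the 3 mice whose libraries differ in sex-linked genes. The fits were tested on simulated data. Figures were drawn in Python 3.11.15 with matplotlib 3.10.9.

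The 9 genes and the marker lists were chosen with earlier results of these data known. The lists are glutamate supply, other thalamic, telencephalic, midbrain and habenula, hindbrain, granule cell, unipolar brush cell, Purkinje cell, GABAergic, oligodendrocyte, astrocyte, microglia and choroid plexus genes; Slc1a3 is on the glutamate supply and astrocyte lists and Slc1a6 on the glutamate supply and Purkinje cell lists. All 9 genes are named, the 5 genes most alike to each of 3 of them, and from each list its most abundant gene and those at the extremes, and other names were chosen after their values were seen; some single genes of the lists are not reported here. The spread between replicates of a group exceeds counting noise (lowest chi-square per degree of freedom between replicates 8.37).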

Additional observations from a re-analysis of the deposited data

Results flagged for a closer look

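Within each group of 4 to 10 libraries, a level was marked when it stood far from the others by Dixon's test, which chance alone would do in about 1 of 20 groups. Of 130 groups of members tested, 26 had such a level. In control cerebellar vGluT2 IP 5 these were Tcf7l2 (106.4 CPM), Lhx9 (25.9) and Shox2 (30.5). In HD cerebellar vGluT2 IP 5 they were Slc17a6 (73), Tcf7l2 (29), Lhx9 (8.06), Shox2 (5.95) and Lhx2 (1.27). In control cerebellar total RNA 4 of the vGluT2 line they were Slc17a6 (67.3), Tcf7l2 (66.1), Lhx9 (18), Shox2 (13.1) and Lhx2 (2.4). In HD cerebellar Gad2 IP 2 they were Slc17a6 (22.9), Tcf7l2 (7.88) and Lhx2 (0.565).

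The others are single values, apart from control PV IP 6, which was marked for Slc17a6 and Tcf7l2. Slc17a6 stood apart in control PV IP 6 (78.3), control SST total RNA 4 (77.6) and control cerebral vGluT2 IP 1 (37.7). Slc17a7 did so in HD cerebral vGluT2 IP 1 (2688), Slc17a8 in the re-sequenced HD PV IP 2 (6.77), and Tcf7l2 in control PV IP 6 (14.1). Lhx9 did so in control cerebral Gad2 IP 1 (2.63), Lhx2 in control PV IP 1 (15.7) and in HD cerebellar total RNA 3 of the vGluT2 line (1.09), and Prkcd in control cerebellar vGluT2 IP 2 (34.9).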

How the results depend on the processing

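Of the fold changes of members under other processing choices with all or nearly all libraries, 436 kept direction and call, 19 were weaker, 6 stronger and 9 reversed. With a library left out, 1000 kept both, 42 were weaker, 2 stronger and 25 reversed, and under the alternatives added after seeing the data the counts were 101, 5, 3 and 10. Except where stated, the cause was not tested.

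DESeq2 called more genes in all HD comparisons: 25 in cerebral vGluT2 IPs, 665 in the cerebellar ones, 75 in cerebral Gad2 IPs, 22 in cerebellar Gad2 IPs, 42 in PV IPs, 2 in SST IPs, 119 in cerebral total RNA and 4977 in cerebellar total RNA, and 126 for the difference of the HD effect between regions. Among members it called 1 in cerebellar Gad2 IPs, 1 in cerebral total RNA, 3 in cerebellar total RNA and 5 between regions in vGluT2 IPs. Without the count filter, and with DESeq2 size factors, 0 genes were called in cerebral vGluT2 IPs and 1 in cerebellar Gad2 IPs.

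In no comparison as a whole did all pairs of the same replicate number correlate above 0.1, so the number was not taken to pair the libraries; the lowest and highest correlations were -0.71 and 0.91. Within the Gad2 line of cerebral total RNA all 3 pairs did (0.91, 0.39 and 0.78), and each library there correlated best with its own number, a hint from the data and not from the design. Prkcd was lower in the HD library in each of these 3 pairs. With the replicate block, 0 genes were called in cerebral vGluT2 IPs, 108 in the cerebellar ones, 9 in cerebral Gad2 IPs, 0 in cerebellar Gad2 IPs, 0 in PV IPs, 1 in SST IPs, 19 in cerebral total RNA and 9 in cerebellar total RNA, where 0 members were called. Prkcd in cerebral total RNA had -0.52 with the block (SE 0.115, edgeR adjusted p 0.132). In cerebral vGluT2 IPs the block reversed Slc17a6 (0.04), Slc17a8 (0.06), Lhx9 (0.03) and Shox2 (0.06).

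Without the re-sequenced library, cerebellar Gad2 IPs had 0 calls, and in cerebral vGluT2 IPs Slc17a8 (0.02), Lhx9 (0.02) and Shox2 (0.05) reversed. When only total RNA from vGluT2 mice served as reference, Tcf7l2 reversed in cerebellar vGluT2 IPs (-0.06). With mouse as a block, 6134 genes were called for cerebral vGluT2 IPs against total RNA, and Tcf7l2 reversed in cerebellar vGluT2 IPs (-1.31). Without the 3 mice that differ in sex-linked genes that block, which still rests on mouse labels in doubt, gave -0.89 for Tcf7l2, 1 gene called for the difference of the HD effect, and -0.17 for Prkcd in it.

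Without the libraries high in Tcf7l2, the HD comparison of cerebellar vGluT2 IPs had 152 calls and Tcf7l2 reversed (0.32), cerebellar Gad2 IPs had 0 calls, and cerebellar total RNA had 143 calls, 0 of them members, with Shox2 (0.45) and Lhx2 (0.54) reversed. For cerebellar vGluT2 IPs against total RNA, Tcf7l2 (-3.07), Lhx9 (-0.16) and Shox2 (-1.55) reversed. For the difference of the HD effect, Tcf7l2 (0.35) and Prkcd (-0.05) reversed. The reversals of Tcf7l2, Lhx9 and Shox2 follow from the libraries left out, which hold their highest levels. Shox2 was not tested in the HD comparisons of cerebellar vGluT2 and Gad2 IPs without them, because its mean fell under the filter.

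Leaving out each library in turn gave these ranges of calls: 0 to 1 in cerebral vGluT2 IPs, 149 to 255 in the cerebellar ones, 3 to 12 in cerebral Gad2 IPs, 0 to 3 in cerebellar Gad2 IPs, 0 to 4 in PV IPs, 0 to 1 in SST IPs, 4 to 43 in cerebral total RNA and 96 to 7408 in cerebellar total RNA, where 0 to 4 members were called. In cerebral vGluT2 IPs fold changes near 0 reversed: Slc17a7 ranged from -0.14 to 0.03, Slc17a8 from -0.45 to 0.02, Tcf7l2 from -0.18 to 0.08, Lhx9 from -0.23 to 0.04, Shox2 from -0.17 to 0.05 and Lhx2 from -0.02 to 0.06. In cerebellar vGluT2 IPs Tcf7l2 ranged from -4.79 to 3.05, Lhx9 from -3.14 to 0.61 and Shox2 from -6.22 to 1.60. In cerebellar total RNA Shox2 ranged from -3.22 to 0.45 and Lhx2 from -1.67 to 0.54. For cerebellar vGluT2 IPs against total RNA, Tcf7l2 ranged from -1.61 to 0.33, Shox2 from -0.60 to 1.27 and Lhx2 from -0.02 to 0.71. Prkcd between regions in total RNA ranged from -0.08 to 0.01.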

Other observations

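HD PV IP 3 had a summed level of 1149 CPM for the granule cell genes, against 342 to 429 in the other 4 HD PV IPs, and of 5000 CPM for the Purkinje cell genes, against 595 to 860. Control PV IP 2 stood apart in the same lists to a smaller extent, at 653 CPM against 354 to 401 in the other 5 control PV IPs, and at 2195 against 667 to 1065. HD cerebral Gad2 IP 2 had a Purkinje cell sum of 1745 CPM, against 408 to 624 in the other 5 HD IPs and 588 to 1114 in the 6 controls, and the highest Prkcd of these IPs, 49.4 CPM, against 21.4 to 33.5 and 30.6 to 44.8.

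Some limits apply to all values. Groups hold 3 to 6 libraries, so small fold changes can go uncalled. With so few libraries, genotypes can also lie apart by chance. Where they are said to be apart or without overlap, the share of all genes that are so is not given. Such separation is therefore no result particular to the gene. Genes near 0, such as Slc17a8 and Shox2 in cerebellum, rest on few counts. The fits held no term for sex, which is not balanced between genotypes in every group. In cerebellar total RNA of the Gad2 line, Y-linked sums were 26.6 and 80.7 CPM in controls 1 and 2. They were 0 in control 3 and in HD 1, 2 and 3. Genotype and sex cannot be fully told apart there. IPs carry RNA of untagged cells, and their share was not measured. The mouse labels of all 5 control cerebellar vGluT2 IPs are in doubt, since 3 of these mice have libraries that differ in sex-linked genes and labels shifted by 1 mouse would match all 5. Whether libraries high in Tcf7l2 hold tissue from outside the cerebellum cannot be settled from RNA levels alone.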
